A study of Mus musculus with 6 samples.

Results

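Transcripts of 10 genes that buffer energy and oxygen in muscle were followed in C2C12 cells with and without *Phf2*. The genes were taken by symbol from the deposited count matrix: *Mb*, *Ckm*, *Ckb*, *Ckmt1*, *Ckmt2*, *Slc6a8*, *Gamt*, *Ak1*, *Ampd1* and *Fabp3*, each on a single row, of 55401 genes in all. A total of 9 of the 10 passed the filter on low counts, and *Ckmt1* did not. C2C12 is a mouse myoblast line that exits the cell cycle and fuses into myotubes in medium with little serum, and PHF2 is a histone demethylase that acts on dimethylated lysine 9 of histone H3. The study asked what the loss of *Phf2* does to transcription in these myotubes, and poly(A) RNA was sequenced 2 d after differentiation began, in DMEM with horse serum.

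The 3 control libraries, labelled wild type, came from mock cells that received a plasmid with Cas9, the ZsGreen reporter and a guide matching no mouse sequence. The 3 *Phf2* KO libraries came from cells that received a mixture of 4 such plasmids, each with another guide against *Phf2*. Cells of both groups were sorted for ZsGreen, expanded and frozen before differentiation. The sorted cells were not cloned, so the KO group is a pool of cells with different edits or none. With 1 pool per group, the pool and the genotype cannot be told apart. Double-strand breaks were expected only in KO cells, as the paper states, so their effect cannot be told apart from the loss of *Phf2* either. The replicates are wells of 1 experiment, and the p-values measure only the spread between these wells.

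Working muscle uses ATP faster than mitochondria deliver it, and several systems bridge the gap. Creatine kinases pass phosphate between ATP and creatine: muscle-type CKM and brain-type CKB act in the cytosol, and ubiquitous CKMT1 and sarcomeric CKMT2 act at the inner mitochondrial membrane. Creatine itself is made from arginine and glycine by GATM and GAMT and enters cells through the transporter SLC6A8. Adenylate kinase 1 makes ATP and AMP from ADP, AMP deaminase 1 removes the AMP, myoglobin binds oxygen, and FABP3 carries fatty acids through the cytosol.

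The libraries held between 52526109 and 67502788 estimated counts. The targeted gene, *Phf2*, measured 102, 95.5 and 104.6 CPM (counts scaled to library size, TMM-normalized) in control replicates 1, 2 and 3 and 41.1, 37.6 and 38.6 CPM in *Phf2* KO replicates 1, 2 and 3, so the KO mean was 38.8% of the control mean (adjusted p = 8.32e-09). That is a level of RNA, and the paper reported a larger relative loss of PHF2 protein in KO myoblasts. Of 17310 genes tested, 1122 passed an adjusted p of 0.05, which is 6.48%. A list of 12 markers of differentiating muscle was chosen with earlier results of these data known, so it is not independent of them. All 12 were detected, and their summed level was 10220 to 11950 CPM in control and 8106 to 8782 CPM in *Phf2* KO. All 12 had a negative log2 fold change and 8 fell past the threshold, where 3.26% of all genes tested fell. The 8 were *Des*, *Mymk*, *Tnni1*, *Myog*, *Chrna1*, *Cdh15*, *Myh3* and *Tnnt1*. By exactTest, DESeq2 and limma-voom, 11, 11 and 10 of the 12 passed. Fewer differentiated cells and less RNA per cell cannot be told apart in bulk samples. Of 10 proliferation markers, none passed by edgeR's quasi-likelihood test, 0 had an unadjusted p under 0.05, and 0 passed by exactTest, DESeq2 or limma-voom. The defining markers of other cell types were low: the 5 adipocyte markers summed to at most 0.292 CPM, with *Plin1* and *Lep* at 0 in each library, the 5 endothelial markers to at most 0.945 CPM, and the 5 macrophage markers to at most 2.68 CPM, with *Adgre1* at 0 throughout. The 5 fibroblast markers, led by *Dcn*, summed to between 575.5 and 762 CPM in control and between 689.8 and 779 CPM in *Phf2* KO. Of the 5, 3 had a negative and 2 a positive log2 fold change. Past the threshold 1 of them, *Dpt*, fell. *Dcn*, at 116% of control, did not pass (log2 fold change 0.21, adjusted p = 0.204). DESeq2 called 2 of the 5.

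Myoglobin and both cytosolic creatine kinases were lower in *Phf2* KO cells, and the level of the creatine transporter differed little. In all, 4 of the 9 tested genes passed the threshold, each in the lower direction: *Mb*, *Ckm*, *Ckb* and *Fabp3*. In the same comparison 3.26% of all genes tested passed in the lower direction. None of the 9 rose past the threshold by edgeR's quasi-likelihood test, 0 had a positive change with an unadjusted p under 0.05, and 0 rose by exactTest, DESeq2 or limma-voom. Over the 9 genes the log2 fold change had a median of -0.17, against -0.00096 over all genes tested. In 6 of the 9, *Mb*, *Ckm*, *Ckb*, *Fabp3*, *Ak1* and *Gamt*, each *Phf2* KO library lay below each control library, an arrangement found for 12.2% of all genes tested. The muscle markers moved in the same direction as these genes, and their part in the difference was not tested.

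**Figure D1:**
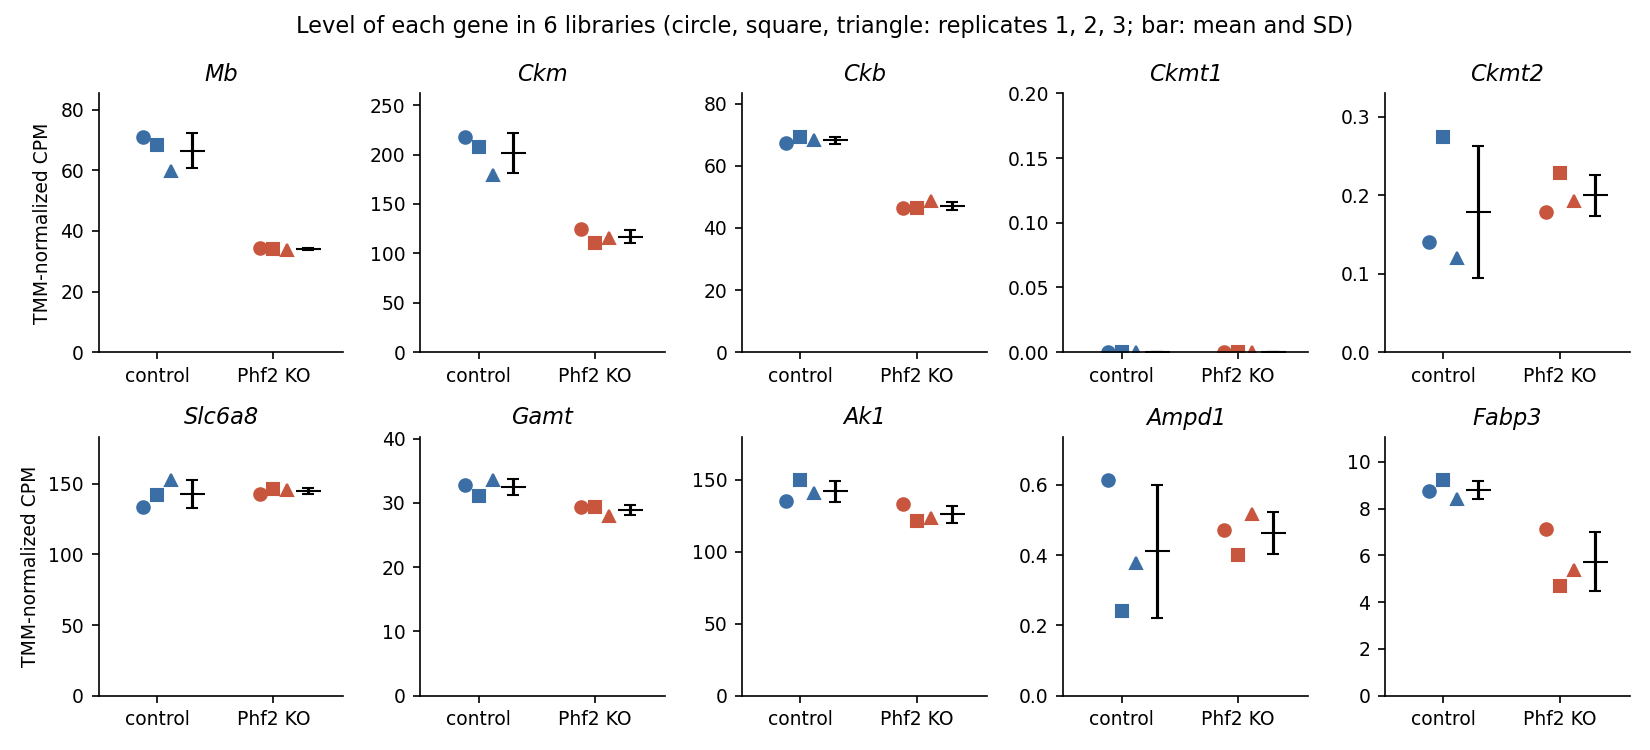
TMM-normalized CPM of each of the 10 genes (y axis, from 0, one scale per panel) in the 3 control libraries (blue) and the 3 Phf2 KO libraries (red), with the mean and SD as a black bar. The groups stand clearly apart for Mb (59.9 to 71.1 against 33.6 to 34.3 CPM), Ckm and Ckb, and mix for Slc6a8, Ckmt2 and Ampd1, while Ckmt1 is at 0 in all 6 libraries.

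**Figure D2:**
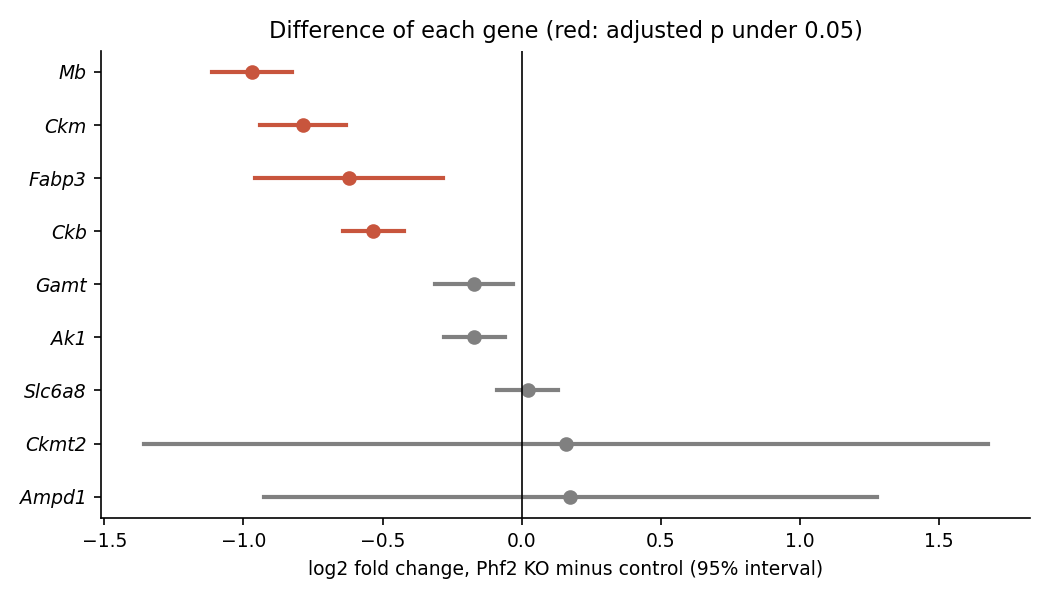
Log2 fold change of *Phf2* KO minus control (x axis) with its 95% interval for the 9 genes tested, in order of size, from edgeR's quasi-likelihood fit; red marks an adjusted p under 0.05. Mb, at -0.97, is farthest from 0, Ckm, Fabp3 and Ckb follow, and the intervals of Ckmt2 and Ampd1 span more than 2 log2 units.

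*Mb* encodes myoglobin, the oxygen-binding protein of muscle fibres (ENSMUSG00000018893.15, chr15:77015487-77050670, minus strand, mm10). It measured 71.1, 68.5 and 59.9 CPM in control replicates 1, 2 and 3 and 34.3, 34.1 and 33.6 CPM in *Phf2* KO replicates 1, 2 and 3. The groups were far apart, and the KO libraries were closer to each other (coefficient of variation 1.15%) than the control libraries were (8.83%). The KO mean, 34.0 ± 0.390 CPM (SD, n = 3), was 51.1% of the control mean, 66.5 ± 5.88 CPM (SD, n = 3). The log2 fold change was -0.97 (SE 0.0662, adjusted p = 3.45e-06). Of the 17310 genes tested, 3 had a smaller p than *Mb*, and 414 had a more negative log2 fold change.

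*Ckm* encodes the muscle-type creatine kinase of the cytosol and the M-band (ENSMUSG00000030399.2, chr7:19404776-19422841, plus strand). It measured 218, 207 and 179 CPM in control and 125, 111 and 115 CPM in *Phf2* KO, in the order of the replicates. Control replicate 3 was the lowest of its group, as it was for *Mb*, and still lay above every KO library. The KO mean was 117 ± 6.98 CPM (SD, n = 3) against 202 ± 20.0 CPM (SD, n = 3) in control, or 58.0%. Its log2 fold change was -0.78 (SE 0.0703, adjusted p = 8.7e-05).

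*Ckb* encodes the brain-type subunit, which is the cytosolic form of cells other than striated muscle and is also expressed by myoblasts (ENSMUSG00000001270.9, chr12:111669361-111672338, minus strand). It measured 67.1, 69.4 and 68.1 CPM in control and 46.4, 46.3 and 48.6 CPM in *Phf2* KO. The spread within each group was small, with a coefficient of variation of 1.62% in control and 2.74% in KO. The KO mean, 47.1 ± 1.29 CPM (SD, n = 3), was 69.1% of the control mean, 68.2 ± 1.11 CPM (SD, n = 3), with a log2 fold change of -0.53 (SE 0.0505, adjusted p = 4.54e-05).

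The falls of *Mb*, *Ckm* and *Ckb* were called in each of the 18 other fits made for each gene, 6 of which left out 1 library, with adjusted p at most 0.0153, 0.0221 and 0.0214. Over those 18 fits the log2 fold change was between -1.04 and -0.92 for *Mb*, between -0.86 and -0.73 for *Ckm* and between -0.56 and -0.51 for *Ckb*. Reads of the creatine kinase genes can be told apart at the length used: between the coding sequences of *Ckm* and *Ckb*, 76.5% of aligned bases are identical and the longest run without a difference is 20 bases, whereas reads were 150 bp. A pair of *Ckb* pseudogenes, *Ckb-ps1* and *Ckb-ps2*, had a count of 0 in all 6 libraries. The sources used here do not state whether the counting used strand, so reads of an overlapping gene on the other strand cannot be told apart: *Mb* shares 412 exon bases with *Gm49540*, which had at most 4 counts in a library, and 64 with *Apol6* (4.39 CPM on average), and *Ckm* shares 451 with *A930016O22Rik*, which had at most 15.

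The 250 bases before an annotated (RefSeq) start of transcription are shown for these 3 genes, since they are the ones whose fall was called in each fit. The sequences are those of RefSeq for GRCm38.p6, written 5′ to 3′ on the strand of the gene, and capitals mark each E-box (CANNTG, the class of site that myogenic factors bind) and the MEF2 motif. For *Ckm* the stretch is cut 69 bases before the RefSeq start, where the locus that the authors assembled begins. For *Mb*, which has 3 RefSeq starts, the start nearest to the assembled loci was taken.
*Mb* (chr15:77022788-77023037, minus strand): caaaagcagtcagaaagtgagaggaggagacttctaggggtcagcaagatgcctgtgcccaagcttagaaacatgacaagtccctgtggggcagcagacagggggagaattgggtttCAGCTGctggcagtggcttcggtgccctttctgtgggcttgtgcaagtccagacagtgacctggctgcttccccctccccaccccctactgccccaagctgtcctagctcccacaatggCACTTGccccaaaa
*Ckm* (chr7:19410844-19411024, plus strand): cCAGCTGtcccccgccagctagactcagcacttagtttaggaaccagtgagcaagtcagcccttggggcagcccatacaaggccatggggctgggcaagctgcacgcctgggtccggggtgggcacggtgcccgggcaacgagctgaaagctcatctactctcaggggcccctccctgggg
*Ckb* (chr12:111672339-111672588, minus strand): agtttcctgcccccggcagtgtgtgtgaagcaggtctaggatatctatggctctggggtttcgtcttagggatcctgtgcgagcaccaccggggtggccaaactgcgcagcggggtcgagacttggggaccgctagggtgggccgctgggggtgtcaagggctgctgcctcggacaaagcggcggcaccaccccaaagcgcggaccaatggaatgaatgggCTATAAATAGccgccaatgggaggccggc

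In the *Mb* window 2 E-boxes were found, CAGCTG at 133 and CACTTG at 14 bases before the RefSeq start. The *Ckm* window held 1, CAGCTG, whose first base lies 249 bases before the RefSeq start. No E-box letters were in the *Ckb* window, where the MEF2 motif begins 29 bases and TATAAA, which overlaps it, 28 bases before the start. Motifs were searched on both strands in 32851 RefSeq promoters of the same length. CANNTG was in 66.2% of them, CAGCTG in 13.0%, TATAAA in 12.4%, the MEF2 motif in 2.92% and GGGCGG in 32.7%. Promoters of 8 of the 10 genes were matched, all but *Slc6a8* and *Ampd1*. CANNTG was in 5 of the 8 windows, CAGCTG in 4 (*Mb*, *Ckm*, *Ckmt2* and *Ak1*), TATAAA in 2 (*Ckb* and *Ckmt1*), the MEF2 motif in 1 and GGGCGG in 2 (*Gamt* and *Ckmt2*). Genes that fell and genes that did not pass the threshold were thus both among those with CAGCTG.

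*Fabp3* encodes the heart and muscle fatty acid binding protein (ENSMUSG00000028773.8, chr4:130308595-130315463, plus strand). It measured 8.77, 9.22 and 8.43 CPM in control and 7.12, 4.68 and 5.36 CPM in *Phf2* KO. KO replicate 1 stood closer to the control libraries than the other KO libraries did, and the groups did not overlap. The KO mean was 5.72 ± 1.26 CPM (SD, n = 3) against 8.81 ± 0.396 CPM (SD, n = 3), or 65.0%, with a log2 fold change of -0.62 (SE 0.157, adjusted p = 0.0308). Of the 6 fits that left out 1 library, only the one without KO replicate 1 still called *Fabp3* (adjusted p = 0.00828). Without any one of the other 5 libraries, the 3 control replicates and KO replicates 2 and 3, adjusted p was between 0.0566 and 0.14, with the log2 fold change between -0.65 and -0.50. *Fabp3* shares 81 exon bases with *Zcchc17* on the other strand, which averaged 41.8 CPM with a log2 fold change of -0.08 (adjusted p = 0.581). The pseudogene *Fabp3-ps1* had at most 19 counts in a library.

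**Figure D3:**
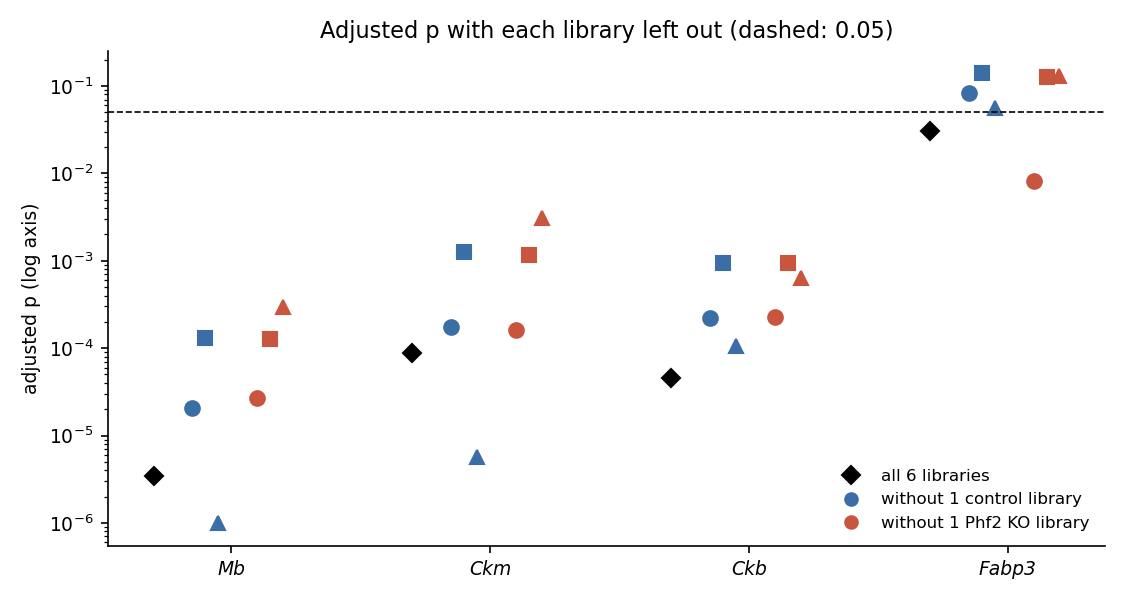
Adjusted p of edgeR's quasi-likelihood test (log axis) for the 4 genes that fell, with all 6 libraries (black diamond), without 1 control library (blue) and without 1 Phf2 KO library (red); circles, squares and triangles are the replicate left out (1, 2, 3) and the dashed line is 0.05. All points of Mb, Ckm and Ckb lie under the line, while 5 of the 6 points of Fabp3 lie above it and the one without Phf2 KO replicate 1 is at 0.00828.

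The mitochondrial creatine kinases were at or near the limit of detection in both groups. *Ckmt1* (ENSMUSG00000000308.14, chr2:121357714-121363737, plus strand) had a count of 0 in all 6 libraries. The deposited counts are not tallies of reads, so no upper limit on its level was derived from them, and the tables of TPM (an abundance scaled by transcript length and library) list *Ckmt1* at 0.0686 TPM in KO replicate 1, at 0.010 in KO replicate 3 and at 0 in the others. *Ckmt2* (ENSMUSG00000021622.3, chr13:91853387-91876885, minus strand) had 8, 16 and 7 counts in control and 11, 12 and 13 counts in *Phf2* KO. The groups overlapped, and the log2 fold change was 0.16 with a 95% interval from -1.36 to 1.67. Differences of either sign within that interval could not be resolved at these counts. Per length, *Ckm* averaged 159 TPM and *Ckmt2* 0.242 TPM in control.

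The supply of creatine was measured by its transporter and its last synthetic enzyme. *Slc6a8* (ENSMUSG00000019558.14, chrX:73673150-73682502, plus strand) measured 133, 142 and 153 CPM in control and 143, 146 and 145.5 CPM in *Phf2* KO. The KO libraries lay inside the range of the control libraries. Its log2 fold change was 0.02 (95% interval from -0.09 to 0.13, adjusted p = 0.88), an interval that does not reach the fold change of *Mb*, *Ckm* or *Ckb*. *Gamt* encodes guanidinoacetate methyltransferase, which makes creatine (ENSMUSG00000020150.13, chr10:80258151-80261012, minus strand), and it measured 32.8, 31.1 and 33.6 CPM in control and 29.3, 29.3 and 28.0 CPM in *Phf2* KO. The groups did not overlap, but the difference was small, with a log2 fold change of -0.17 (95% interval from -0.31 to -0.03, adjusted p = 0.16), and it passed in none of the 18 other fits (adjusted p between 0.126 and 0.343).

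The adenylate genes *Ak1* and *Ampd1* did not pass the threshold. *Ak1* (ENSMUSG00000026817.14, chr2:32621758-32635058, plus strand) measured 135, 149.6 and 140.5 CPM in control and 133, 121.5 and 124 CPM in *Phf2* KO. The lowest control library and the highest KO library were close, and the ranges of CPM did not overlap. The log2 fold change was -0.17 (SE 0.0508, adjusted p = 0.0649). It was past the threshold in 3 of the 18 other fits, by DESeq2 (adjusted p = 0.0304), after a filter of 1 CPM in 3 libraries (0.0376) and with the counts divided by 4 (0.0436), and the range over all 18 was 0.0304 to 0.348. In TPM from the rows of reference genes the ranges of *Ak1* overlapped, with 149.8, 134.9 and 149.3 TPM in control and 123, 130.6 and 138 TPM in *Phf2* KO. In the loci that the authors assembled over *Ak1* they did not overlap. Those loci measured 149.7, 160.2 and 150.9 TPM in control and 141.6, 131.8 and 138.1 TPM in *Phf2* KO. *Ampd1* (ENSMUSG00000070385.12, chr3:103074014-103099720, plus strand) had 35, 14 and 22 counts in control and 29, 21 and 35 counts in *Phf2* KO, with overlapping groups and a log2 fold change of 0.18 (95% interval from -0.93 to 1.28).

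Levels of different genes were compared per length, in TPM from the rows of reference genes. In control the order of the means was *Ckm* (159 TPM), *Ak1* (145), *Mb* (131), *Ckb* (99.7), *Slc6a8* (94.8), *Gamt* (71.0) and *Fabp3* (23.8 TPM), followed by *Ckmt2*, *Ampd1* and *Ckmt1*, which were under 1 TPM. *Ckm*, *Ak1* and *Mb* overlapped each with its neighbour in that order, as did *Ckb* with *Slc6a8*. In *Phf2* KO the order was *Ak1* (131 TPM), *Slc6a8* (97.0), *Ckm* (92.9), *Ckb* (69.6), *Mb* (67.2), *Gamt* (63.8) and *Fabp3* (15.4 TPM). *Slc6a8* and *Ckm* overlapped there, as did *Ckb* with *Mb* and *Mb* with *Gamt*. *Ckm* and *Mb* thus held positions 1 and 3 in control and positions 3 and 5 in KO, where *Ak1* lay above *Slc6a8* in every library. The loci that the authors assembled measured up to 2.07 TPM over *Ckmt2* and up to 1.19 TPM over *Ampd1*, both in *Phf2* KO replicate 2.

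**Figure D4:**
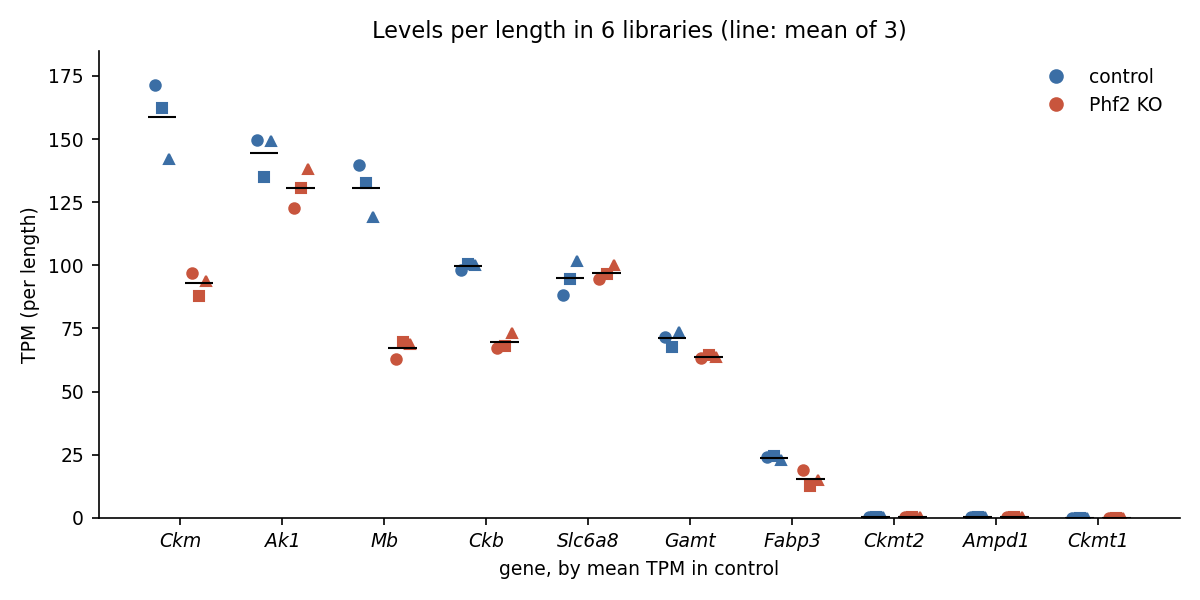
TPM of the 10 genes (y axis, from 0), from the rows of reference genes. Genes are in order of the control mean, with each control library in blue and each Phf2 KO library in red. A line marks the mean of 3. Ckm is at 142 to 172 TPM in control and at 87.7 to 97.1 TPM in Phf2 KO, the ranges of Ak1 and Slc6a8 overlap between the groups, and the 3 genes on the right lie under 1 TPM.

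During muscle differentiation the cytosolic creatine kinase shifts from the brain to the muscle type, and the balance of the pair was therefore computed as the share of *Ckm* in the summed TPM of *Ckm* and *Ckb*. That share was 63.6%, 61.7% and 58.7% in control and 59.0%, 56.4% and 56.2% in *Phf2* KO. Control replicate 3 lay just under KO replicate 1, so the groups overlapped. The mean was 61.3 ± 2.47% (SD, n = 3) in control and 57.2 ± 1.61% (SD, n = 3) in KO, a difference of -4.15 points (two-sided exact permutation test, p = 0.2, with 0.1 the smallest possible). Between libraries of the same replicate number the share was lower in KO in 3 of 3 pairs, with differences of -4.56, -5.33 and -2.55 points, and the two-sided exact permutation test within pairs gave p = 0.25, the smallest that 3 pairs allow. The share of *Ckmt2* in the mitochondrial pair was 100% in 4 libraries and 78.4% and 96.6% in KO replicates 1 and 3 (exact permutation p = 0.4), but it rests on genes under 1 TPM and was 100% in every library by counts. *Ampd1* made up 0.895%, 0.351% and 0.549% of the TPM of *Ampd1*, *Ampd2* and *Ampd3* in control and 0.743%, 0.586% and 0.779% in *Phf2* KO (exact permutation p = 0.6).

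For each gene that fell, the 3 genes with the most similar profile were sought among 9613 genes (mean level 10 CPM or more), by the Euclidean distance between log2(CPM + 1) values of the 6 libraries, centred on the control mean. With this centring the distance depends largely on the size of the KO difference, so genes with a similar fold change are favoured. Shared regulation was not tested. *Mb* was closest to *Myh1*, a fast myosin heavy chain (distance 0.179), *Pgam2*, the muscle phosphoglycerate mutase (0.217), and *Myh6* (0.225). *Ckm* was closest to *Klhl40*, a kelch protein of the sarcomere (0.114), *Prkag3*, the muscle-enriched gamma subunit of AMP-activated protein kinase (0.117), and *Pgm5* (0.133). *Ckb* was closest to *Adgrl3* (0.0717), *Ccdc134* (0.0952) and *Jph1*, a junctophilin that ties the sarcoplasmic reticulum to the sarcolemma (0.113). *Fabp3*, the least abundant of the 4, was closest to *Ankrd2* (0.223), *Porcn* (0.232) and *Tnni1*, the slow troponin I (0.241).

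Beyond these 10, a list of 52 other genes of creatine supply, adenylate and purine handling, mitochondrial exchange of ATP, AMP-activated protein kinase (AMPK), fatty acid uptake and globins was examined. Of these, 40 were tested, 6 fell and 1 rose past the threshold, where 3.26% of all genes tested fell and 3.22% rose. The list was chosen with earlier results of these data known, so the comparison is not independent of them. The median log2 fold change of the 40 was -0.03, with 24 negative and 16 positive. The count of 7 became 4 without control replicate 2, without control replicate 3 and without *Phf2* KO replicate 2, and 2 when TPM was tested with limma.

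Among genes of creatine supply, *Gatm*, whose enzyme catalyses the first step of creatine synthesis, fell. It measured 66.9, 68.9 and 65.1 CPM in control and 58.4, 55.7 and 56.4 CPM in *Phf2* KO, with no overlap and a log2 fold change of -0.24 (SE 0.0504, adjusted p = 0.012). The call was lost without control replicate 2 (adjusted p = 0.0791) and without KO replicate 2 (0.0685). Of 5 adenylate kinases tested, 2 fell. *Ak5*, a cytosolic form best known from brain, measured 9.10, 6.73 and 8.52 CPM in control and 5.22, 5.71 and 4.17 CPM in *Phf2* KO (log2 fold change -0.69, adjusted p = 0.0218). *Ak6*, a nuclear form, was at 83.6% of control (log2 fold change -0.26, adjusted p = 0.0177), and it shares 1564 exon bases with *Taf9* on the same strand, so that its counts depend on how reads were split. Both calls depended on single libraries: *Ak5* was lost without control replicate 1, control replicate 3 or KO replicate 3, and *Ak6* in 5 of 6 fits without 1 library, with adjusted p up to 0.105 and 0.107.

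Of the 5 genes of the purine nucleotide cycle, *Adssl1*, the muscle adenylosuccinate synthetase, fell. Its control libraries measured 54.0, 53.1 and 44.6 CPM and its KO libraries 37.6, 33.2 and 36.9 CPM. The groups did not overlap, the log2 fold change was -0.49 (SE 0.0783, adjusted p = 0.00204), and the call held in all 6 fits without 1 library and was lost only on TPM (adjusted p 0.0723 and 0.0643). Of 6 nucleotide salvage genes tested, *Pnp*, the purine nucleoside phosphorylase, rose, with 49.3, 48.5 and 47.2 CPM in control and 66.7, 61.8 and 52.5 CPM in *Phf2* KO (log2 fold change 0.32, adjusted p = 0.025). The call was kept in 1 of 6 fits without 1 library, and *Pnp* shares 718 exon bases with *Gm49342* and has a close copy in *Pnp2*.

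*Prkag3* was the only 1 of the 9 genes listed under AMPK, which include *Stk11* and *Cab39*, past the threshold in the fit of all 6 libraries. Its CPM was 43.2, 39.7 and 33.4 in control and 25.1, 21.3 and 21.0 in *Phf2* KO, so that control replicate 3 was again the lowest control library, above every KO library. The log2 fold change was -0.79 (SE 0.0997, adjusted p = 0.00059), and it was called in all 18 other fits. *Cd36*, a membrane receptor for fatty acids, was the gene of the list with the largest fall among those called, with 4.93, 6.06 and 4.67 CPM in control and 1.89, 1.56 and 2.31 CPM in *Phf2* KO. The KO mean was 36.7% of the control mean (log2 fold change -1.44, SE 0.203, adjusted p = 0.000773), and this was called in all 18 other fits. *Cd36* is also expressed by endothelial cells, adipocytes and macrophages. The summed endothelial markers were 0.584 to 0.945 CPM in control and 0.296 to 0.628 CPM in KO, the macrophage markers 2.16 to 2.68 and 1.79 to 2.30 CPM, and the adipocyte markers 0 to 0.292 and 0 to 0.0650 CPM, and their part in the result was not tested.

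None of the 6 tested genes of mitochondrial exchange, the phosphate and adenine nucleotide carriers and the voltage-dependent anion channels, passed by edgeR's quasi-likelihood test, and 0 had an unadjusted p under 0.05 or passed by exactTest, DESeq2 or limma-voom. The smallest p was that of *Vdac2* (log2 fold change -0.09, 95% interval from -0.18 to 0.0049, adjusted p = 0.287). Of the other globins 2 were tested and 0 passed by edgeR's quasi-likelihood test, exactTest, DESeq2 or limma-voom, with 2 at an unadjusted p under 0.05, 1 in each direction. *Cygb*, cytoglobin, measured 0.438, 0.292 and 0.584 CPM in control and 0.797, 0.781 and 1.14 CPM in *Phf2* KO, without overlap (log2 fold change 1.05, adjusted p = 0.177).

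**Figure D5:**
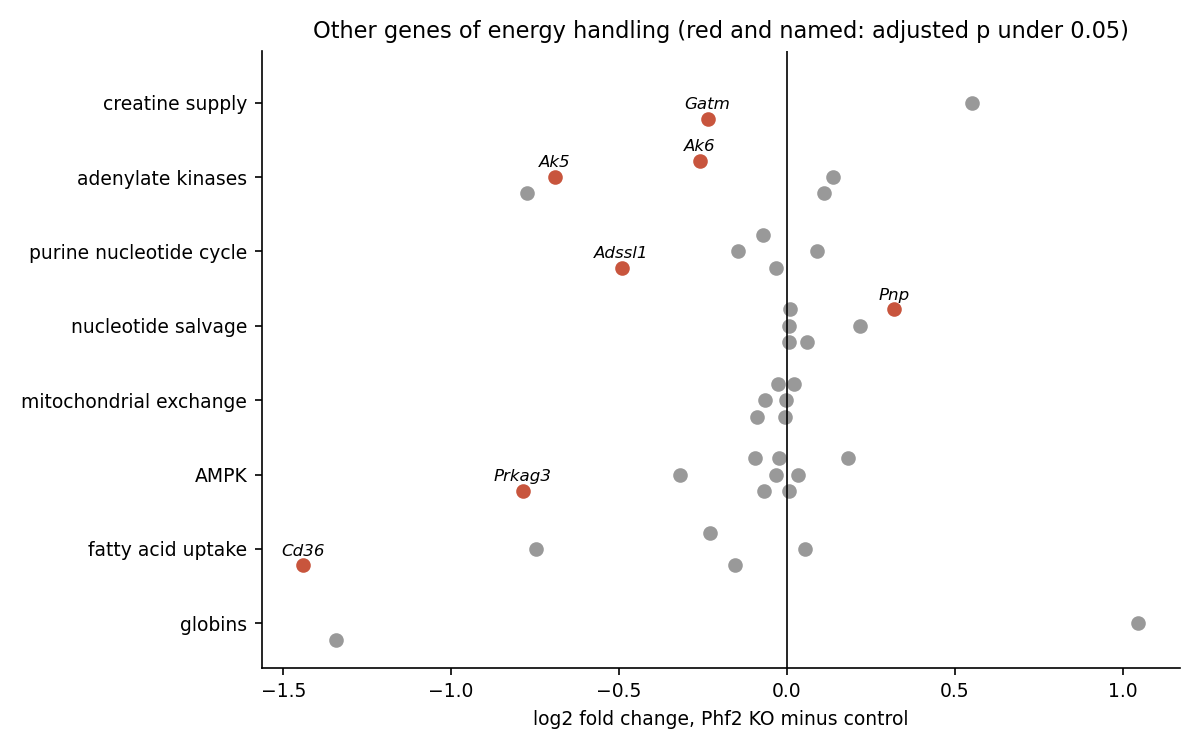
Log2 fold change of *Phf2* KO minus control (x axis) for the 40 tested genes beyond the 10, by group (y axis, with points set apart vertically only for legibility); red, named points passed an adjusted p of 0.05. Cd36 (-1.44) and Prkag3 (-0.79) are the called genes farthest below 0, Pnp (0.32) is the one called above it, and the genes of mitochondrial exchange all lie close to 0.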

How the data were processed

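RNA-seq of 6 C2C12 libraries, 3 control and 3 *Phf2* KO, was analysed from deposited tables. The authors selected poly(A) RNA, made directional libraries, sequenced reads of 150 bp, aligned them to mm10 with HISAT2 and obtained values with StringTie. Versions, annotation and strand setting are not given in the sources used here. The deposited matrix holds estimated counts, whole numbers without scaling to the size of the library. For genes with 1 transcript and at least 500 counts, the median was 74.98 to 74.99 covered bases per count, so they are not tallies of reads. A deposited table per library gives TPM, which the authors scaled within each library, and coverage, a signal of the authors' mean depth per base that was used only for the unit of the counts. Rows of reference genes were used.

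In edgeR 4.0.16 (R 4.3.3), filterByExpr with a minimum count of 10 removed low genes, TMM set the scaling, and the robust quasi-likelihood test compared the groups, with Benjamini-Hochberg adjustment over 17310 genes and a threshold of 0.05. All adjusted p-values are from this fit unless another is named. The prior count behind log2 fold changes was 0.125. Shares were compared by two-sided exact permutation tests. Alternatives were exactTest, DESeq2 1.42.0, limma-voom and limma on TPM (limma 3.58.1), other scalings and filters, and leaving out each library. Replicate numbers were checked for pairing: deviations of libraries with the same number correlated at 0.29, 0.374 and 0.205 over 10924 genes, and those with different numbers at most at 0.038. Deviations within a group cancel out, so these correlations are not independent of each other. No sample label states a pairing. The main fit had no block, and a fit with the number as a block was run as an alternative. Coordinates are those of GENCODE M21 (GRCm38).

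The 10 genes and the lists of other genes and markers were chosen with earlier results of these data known. Named were *Phf2*, the 10 genes, the genes past the threshold in each list or else that with the smallest p, and the 3 genes nearest in profile to each called gene. Markers, overlapping genes and pseudogenes were named in addition, after their values were seen.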

Additional observations from a re-analysis of the deposited data

How the results depend on the processing

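The number of the 10 genes past the threshold was 4, and it was 3 to 5 under all alternatives, and 3 to 4 when 1 library was left out. The replicate block left it at 4, and this pairing gave 1316 genes in all and 7 of the other energy genes and changed no call of the 10 genes. The number of all genes called, 1122, was 127 by limma on log2(TPM + 1), 153 on log2(TPM + 0.1), 472 at an adjusted p of 0.01 and 468 to 1039 without 1 library, lowest without control replicate 2 and also low without *Phf2* KO replicate 2 (577) and replicate 3 (613). The other energy genes called, 7, were 2 in both fits of TPM, 3 at an adjusted p of 0.01 and 4 to 6 without 1 library. Signs turned for genes that were not called: without 1 library the log2 fold change was -0.0275 to 0.0705 for *Slc6a8* (negative without control replicate 1), -0.0956 to 0.579 for *Ampd1* (without control replicate 2) and -0.06 to 0.607 for *Ckmt2* (without control replicate 3). The *Ampd1* share differed by 0.104 points, and by -0.0195 to 0.252 points without 1 library, with the sign turned without control replicate 2. The difference in the *Ckmt2* share was -8.35 points from TPM and 0 from CPM, and from TPM it was -12.5 to -1.73 points without 1 library, smallest when KO replicate 1 was left out (-1.73) and largest when KO replicate 2 was (-12.5). Pairing by replicate number gave p = 0.25, 0.5 and 0.5 for the *Ckm*, *Ckmt2* and *Ampd1* shares (exact permutation, chosen after the data were seen). The cause of these changes was not tested, except that fits without 1 library hold fewer samples. *Fabp3* was also not called on TPM (adjusted p = 0.115 and 0.107). The same alternatives were applied to *Phf2* and the named genes of the other lists after the data were seen. DESeq2 gave no adjusted p for *Ampd1* and *Ckmt2*, whose few counts limit what can be detected.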

Other observations

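The tables of single libraries also list loci that the authors assembled from the reads, and the 5′ edge of the locus over each gene was compared with RefSeq. That edge was the same base in each of the 6 libraries for *Ckm*, *Ckb*, *Slc6a8*, *Gamt*, *Ak1* and *Fabp3*. For *Ckb*, *Gamt* and *Ak1* it was a RefSeq start, and for *Ckm* and *Fabp3* it lay 69 and 143 bases from one. For *Mb* the edge was at the same RefSeq start in control replicate 1 and *Phf2* KO replicate 2, at 558 and 666 bases from it in control replicates 2 and 3, and at 3681 and 10216 bases from it in *Phf2* KO replicates 1 and 3. The *Mb* loci measured at least 120.7 TPM in each control library and at most 71.9 TPM in each *Phf2* KO library. The edge of the *Ckmt2* loci lay 11532 to 18614 bases from the RefSeq start.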
